A study of Mus musculus with 27 samples.

Results

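The clustered replication-dependent histone genes are the 70 rows, of 53379 genes in the deposited expression table, whose symbol begins with Hist1h, Hist2h, Hist3h or Hist4h. They were chosen by name alone. They code for the linker histone H1 (6 genes) and the core histones H2A (20 genes), H2B (19 genes), H3 (12 genes) and H4 (13 genes). By symbol, 56 of them belong to the Hist1 cluster, 10 to Hist2, 3 to Hist3 and 1 to Hist4. The annotation of the mouse build GRCm38 (mm10) places these on chromosomes 13, 3, 11 and 6. Hist1h2al lies apart at chr13:51202727-51203065, whereas the other Hist1 genes lie between positions 21715763 and 23934851. Of the 70, 65 have 1 exon only and 3 are annotated as pseudogenes (Hist1h2aj, Hist1h2al and Hist3h2bb-ps).

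The RNA came from E14 mouse embryonic stem cells, a pluripotent line, grown on gelatin with the self-renewal factor LIF. Cells received siRNA against PTBP1 and PTBP2 together (siPTBP1+siPTBP2, the combined knockdown), against PTBP1 alone (siPTBP1) or against GFP (siGFP, the control). They were transfected at the start and again after 24 hours, and harvested at 48 hours. Each culture was split into chromatin (CH), nucleoplasm (NP) and cytoplasm (CY), and polyadenylated RNA of each fraction was sequenced in 3 biological replicates, which gave 9 groups and 27 libraries. PTBP1 and PTBP2 are RNA-binding proteins that act on pre-mRNA splicing, and the study compared RNA between knockdown and control within each fraction.

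Replication-dependent histone genes are transcribed mainly in S phase, when newly copied DNA needs packaging. Their mRNAs carry no intron as a rule and usually end, without a poly(A) tail, a few bases after a conserved stem-loop that is bound by the stem-loop binding protein SLBP and processed with the U7 small nuclear RNP. Polyadenylated forms are also known: they use a poly(A) site downstream of the stem-loop and have been described in cells that leave the cell cycle. Selection on poly(A) favours tailed molecules, and how much untailed histone mRNA these libraries still hold was not measured.

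A stem-loop with 6 paired bases on each side of a loop of 4 was found in the annotated transcripts of 46 members. The ones below belong to genes on which the results turn. They are given 5′ to 3′ in GRCm38 coordinates on the gene's strand, with the 16 bases of the stem-loop in capitals:
Hist1h1c (chr13:23739507-23739532, plus strand): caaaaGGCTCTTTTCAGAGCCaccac
Hist1h4i (chr13:22040961-22040986, minus strand): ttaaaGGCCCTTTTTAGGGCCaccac
Hist1h2be (chr13:23585526-23585551, minus strand): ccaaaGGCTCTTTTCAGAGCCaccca
Hist1h3f (chr13:23544927-23544952, plus strand): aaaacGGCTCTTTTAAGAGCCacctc
Hist1h4a (chr13:23760795-23760820, minus strand): ccaaaGGCCCTTCTCAGGGCCgccca
Hist1h2bk (chr13:22036295-22036320, plus strand): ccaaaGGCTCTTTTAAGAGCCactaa
What the members differ in is where the annotated transcript stops relative to this element. In 26 members an annotated transcript ran more than 50 bases past the stem-loop. In 20 every transcript that holds it ended at or shortly after it, and in 24 no stem-loop was found. These 24 include the pseudogenes Hist1h2aj, Hist1h2al and Hist3h2bb-ps, which were not searched because they have no annotated coding part. For 11 of these 24, among them Hist1h2ai and Hist1h3h, the annotation holds the coding part only. For Hist1h1b, Hist1h2af, Hist1h2ah and Hist2h2ab it holds 3 to 5 bases after the coding part, stop codon included. None of these leaves room for a stem-loop. Of the genes printed above, Hist1h1c runs 840 bases past its stem-loop, Hist1h4i 330, Hist1h2be 1861, Hist1h3f 365 and Hist1h4a 108, whereas Hist1h2bk ends 30 bases after it. A poly(A) signal, AATAAA or ATTAAA in the last 40 bases of an annotated transcript, was present in 17 members, Hist1h1c and Hist1h4i included.

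Values are TPM, a share of all transcripts in a library that corrects for transcript length and sums to the same total in each. The depth of the libraries is unknown, so no counting error can be given. The 70 members together took 103 to 290.4 TPM, which is 0.0103% to 0.0290% of a library. H2afz, the replication-independent H2A variant whose mRNA is spliced and polyadenylated, had by itself 1.68 to 11.2 times the summed TPM of all 70. Fewer cells in S phase and less histone RNA per cell cannot be told apart in such bulk samples.

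Per library, the summed members in CH reached 290.4, 237 and 178 TPM in combined knockdown cells, 226, 225 and 175 TPM in siPTBP1 cells, and 238, 145 and 131 TPM in siGFP cells (replicates 1, 2 and 3). In NP the sums were 155, 128 and 112 TPM in combined knockdown cells, 185, 145 and 122 TPM in siPTBP1 cells, and 145, 145 and 103 TPM in siGFP cells. In CY they were 238.5, 183 and 144 TPM in combined knockdown cells, 200.2, 199.9 and 161 TPM in siPTBP1 cells, and 167, 186 and 145 TPM in siGFP cells. The groups overlapped in every fraction. Replicate 3 had the lowest sum in 9 of 9 groups and replicate 1 the highest in 8 of 9.

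**Figure D1:**
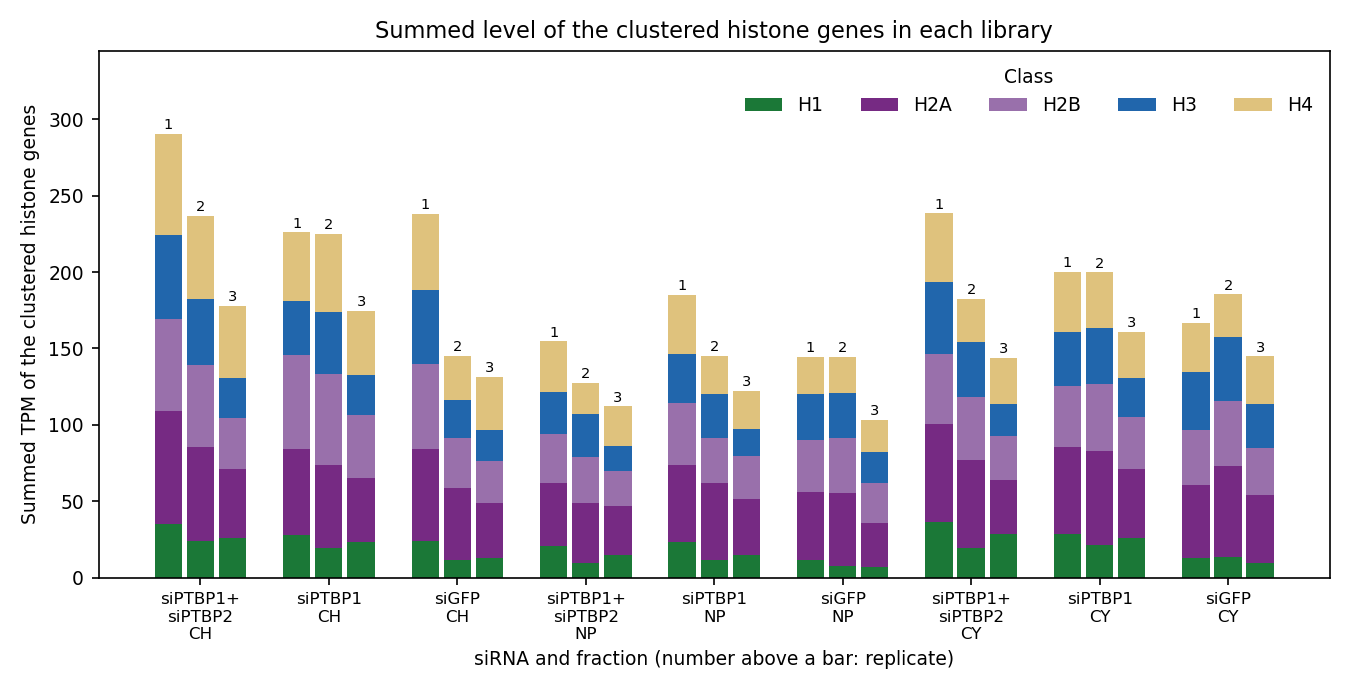
Summed TPM (vertical axis) of the 70 clustered histone genes in each of the 27 libraries, stacked by histone class, with the libraries of each siRNA and fraction side by side and the replicate number above each bar. Sums ran from 103 TPM in siGFP NP replicate 3 to 290.4 TPM in siPTBP1+siPTBP2 CH replicate 1.

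Before the members are described, the libraries were checked against their labels. Ptbp1 averaged 142 ± 50.1 TPM in combined knockdown CY, 123 ± 18.1 TPM in siPTBP1 CY and 549 ± 56.2 TPM in siGFP CY (SD, n = 3 each). It fell in CY (log2 differences of -1.99 and -2.15, limma adjusted p = 0.00249 and 0.000853) and in NP, while in CH the fall passed only with the replicate number in the model (adjusted p = 0.0303 and 0.00541). Ptbp2 fell to 5.43 ± 3.45 TPM in combined knockdown CY, against 11.3 ± 6.76 TPM in siGFP CY, again only with that term (adjusted p = 0.00113). These groups differ in both siRNAs. Between combined knockdown CY and siPTBP1 CY, which differ in the PTBP2 siRNA alone, no gene was called without that term, Ptbp2 included. Replicate 1 stood apart, with 22.8 TPM of Ptbp2 in siGFP CH against 91.7 and 87.8 TPM in the other replicates. Nuclear noncoding RNAs summed to 1395 to 3405 TPM in CH, 157 to 403 TPM in NP and 39.97 to 76.85 TPM in CY, and 10 ribosomal protein genes to 7090 to 10120 TPM in CH and 14950 to 19080 TPM in CY. The 8 pluripotency markers were all present.

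Most members were low. Mean TPM over the 27 libraries was at least 10 for 2 members, at least 5 for 7, between 1 and 5 for 44 and under 1 for 19. Of the 70, 38 were above 0 in all 27 libraries, and 32 were listed at 0 in at least 1. In all, 14 did not reach 1 TPM in 3 libraries and were not tested. The highest of these was Hist1h2bh, at a mean of 0.558 TPM, and the lowest Hist1h4m, listed at 0 in 26 libraries. The other 56 (4 H1, 16 H2A, 16 H2B, 11 H3 and 9 H4 genes) were tested, among 20611 genes in all.

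Near-identical coding sequences limit what the table can say of single members. Reads were assigned to transcripts by kallisto, and the share of a member's 31-base windows found in no other annotated gene was under 20% for 22 members, between 20% and 80% for 36 and at least 80% for 12. It was 88.6% for Hist1h1c, 64.7% for Hist1h4i and 81.8% for Hist1h2be, but 7.99% for Hist1h2ai, 5.77% for Hist1h3h, 6.22% for Hist1h2ao and 0 for Hist2h2aa2. Values of the last 4 are uncertain, since reads could be split among copies.

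The highest member was Hist1h4i, an H4 gene, at a mean of 14.7 TPM over all libraries, followed by Hist1h1c, which codes for the linker histone H1.2, at 12.4 TPM. Hist1h2ai (H2A) followed at 9.93 TPM, Hist1h2bk (H2B) at 7.83, Hist1h3h (H3) at 6.61, Hist1h2ah (H2A) at 6.05 and Hist3h2ba (H2B) at 5.41 TPM. Neighbours in this order overlapped widely. Hist1h2ai ranged from 0 TPM in siGFP NP replicate 1 to 23.0 TPM in siPTBP1 NP replicate 2. The third-ranked genes of the classes were lower, such as Hist1h1b, an H1 gene, at 1.85 TPM. The other 5 H1 genes together averaged 6.44 TPM in combined knockdown CY, 6.40 TPM in siPTBP1 CY and 6.63 TPM in siGFP CY, where Hist1h1c averaged 21.6, 18.8 and 5.18 TPM. In each fraction the mean of Hist1h1c was above this sum in both knockdowns and below it in siGFP. Single libraries did not all follow the means. In siGFP CY Hist1h1c exceeded the sum in replicates 1 (6.62 against 6.23 TPM) and 3 (5.59 against 3.84 TPM), and likewise in siGFP NP. In replicate 2 it was below the sum in combined knockdown CH (11.5 against 12.3 TPM) and in siPTBP1 NP (5.77 against 5.93 TPM).

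**Figure D2:**
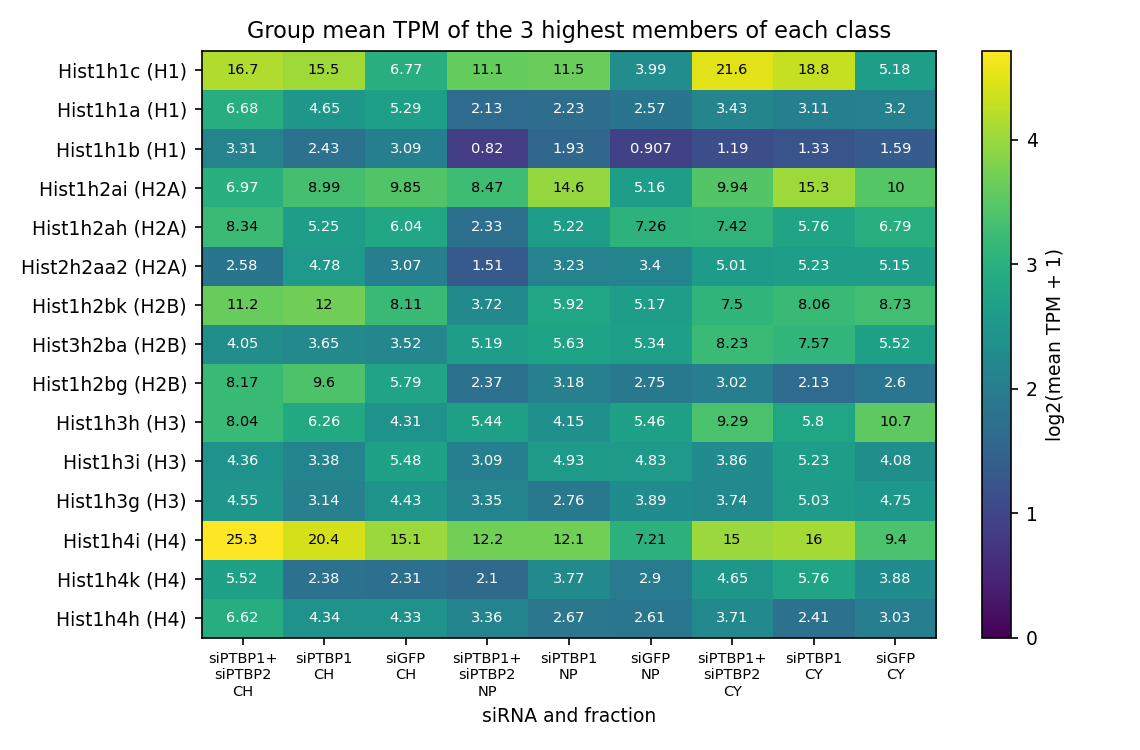
Mean TPM (numbers, 3 replicates) of the 3 highest members of each histone class in the 9 groups, coloured by log2(mean TPM + 1). Hist1h1c had means of 11.1 to 21.6 TPM in the knockdown groups and of 3.99 to 6.77 TPM in the siGFP groups.

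Hist1h1c was the member called in every fraction of both knockdowns, once the replicate number was in the model. Its gene (ENSMUSG00000036181) is a single exon of 1560 bases at chr13:23738808-23740367 on the plus strand. In CY it stood at 30.5, 11.7 and 22.7 TPM in combined knockdown cells, 22.9, 12.1 and 21.5 TPM in siPTBP1 cells, and 6.62, 3.32 and 5.59 TPM in siGFP cells. All 6 knockdown libraries of the cytoplasm lay above all 3 control libraries. In CH it stood at 21.2, 11.5 and 17.4 TPM in combined knockdown cells, 18.2, 10.7 and 17.5 TPM in siPTBP1 cells, and 11.02, 3.12 and 6.18 TPM in siGFP cells. In NP it stood at 15.2, 5.34 and 12.7 TPM in combined knockdown cells, 17.2, 5.77 and 11.6 TPM in siPTBP1 cells, and 6.10, 1.92 and 3.95 TPM in siGFP cells. Replicate 2 was lowest in each of the 9 groups, so that the knockdown and control groups overlapped in NP, and in CH for siPTBP1, although each knockdown library exceeded the siGFP library of its own number.

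Same-numbered libraries showed the difference 9 times out of 9 in either knockdown. The 9 pairs are 3 replicates in each of 3 fractions, and fractions split from 1 culture are not independent. Both knockdowns are set against the same siGFP libraries. Combined knockdown libraries had 1.92, 3.70 and 2.81 times the TPM of their siGFP counterparts in CH, 2.50, 2.78 and 3.22 times in NP, and 4.61, 3.53 and 4.06 times in CY. For siPTBP1 these ratios were 1.65, 3.44 and 2.83 (CH), 2.83, 3.01 and 2.93 (NP), and 3.46, 3.63 and 3.85 (CY). On the log2(TPM + 1) scale the differences from siGFP were 1.28 in CH, 1.26 in NP and 1.82 in CY for the combined knockdown, and 1.18, 1.31 and 1.67 for siPTBP1 (SE 0.469 each). With group means alone in the limma model they did not pass adjustment over all genes: adjusted p was 0.374, 0.636 and 0.165 for the combined knockdown in CH, NP and CY, and 0.507, 0.627 and 0.280 for siPTBP1. With the replicate number as a block the SE was 0.153 and Hist1h1c rose in all 6 comparisons. Adjusted p was then 9.84e-05, 0.00011 and 6.72e-07 for the combined knockdown in CH, NP and CY, and 0.000241, 6.44e-05 and 2.37e-06 for siPTBP1. Without the replicate 1 libraries, in the blocked model, the differences were 1.48, 1.30 and 1.70 for the combined knockdown in CH, NP and CY and 1.44, 1.28 and 1.68 for siPTBP1, all still called.

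**Figure D3:**
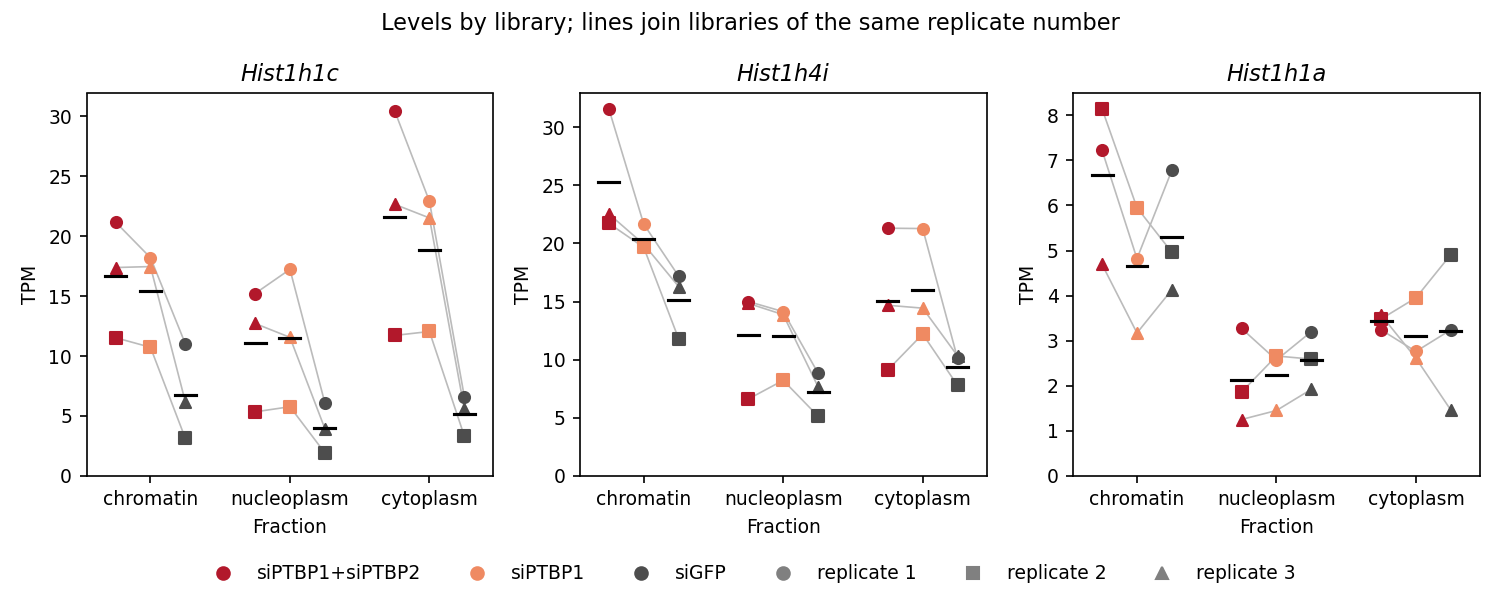
TPM of Hist1h1c, Hist1h4i and Hist1h1a in every library by fraction, with siPTBP1+siPTBP2, siPTBP1 and siGFP from left to right, lines joining the same replicate number, and black bars for group means. Every Hist1h1c line falls toward siGFP, with combined knockdown to siGFP ratios of 1.92 to 4.61; Hist1h1a shows no common direction.

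Marker levels of cell states are given beside Hist1h1c. The 8 pluripotency markers summed to 1333 to 1634 TPM in combined knockdown CH, 1307 to 1656 TPM in siPTBP1 CH and 1727 to 2047 TPM in siGFP CH. In NP they summed to 1762 to 2036 TPM in the combined knockdown, 1746 to 2004 TPM in siPTBP1 and 2383 to 2703 TPM in siGFP, and in CY to 2438 to 3000 TPM in the combined knockdown, 2393 to 2694 TPM in siPTBP1 and 2474 to 2980 TPM in siGFP. The knockdown sums lay below all siGFP sums in CH and NP and overlapped them in CY. The 7 neural progenitor markers summed to 112 to 140 TPM in combined knockdown CH, 107 to 122 TPM in siPTBP1 CH and 89.7 to 119 TPM in siGFP CH. In CY they summed to 52.2 to 91.3 TPM in the combined knockdown, 48.4 to 90.7 TPM in siPTBP1 and 40.2 to 68.7 TPM in siGFP, and in NP they took between 52.3 and 59.22 TPM in all 9 libraries. These groups overlapped in every fraction. The 8 fibroblast markers summed to 57.8 to 127 TPM in combined knockdown CH, 49.5 to 73.2 TPM in siPTBP1 CH and 82.7 to 156 TPM in siGFP CH, with 1 of the 8 at 0 in each. Their sums were 41.1 to 69.3 TPM in combined knockdown NP, 39.8 to 74.8 TPM in siPTBP1 NP and 31.6 to 51.3 TPM in siGFP NP, and 8.68 to 17.1 TPM in combined knockdown CY, 6.90 to 12.9 TPM in siPTBP1 CY and 9.22 to 14.02 TPM in siGFP CY. The 7 primitive endoderm markers summed to 12.4 to 19.2 TPM in combined knockdown CH, 13.3 to 23.1 TPM in siPTBP1 CH and 11.7 to 19.1 TPM in siGFP CH. In NP they summed to 9.36 to 18.2 TPM in the combined knockdown, 10.7 to 17.2 TPM in siPTBP1 and 7.92 to 14.6 TPM in siGFP, and in CY to 6.82 to 8.52 TPM in the combined knockdown, 6.67 to 9.21 TPM in siPTBP1 and 3.78 to 6.99 TPM in siGFP.

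No marker of these 4 lists was called in a knockdown by limma on group means. With the block, 3 of 8 pluripotency markers fell in combined knockdown CY (Zfp42, Nanog and Klf4; 0.951% of all genes fell) and none in siPTBP1 CY, while Zfp42 alone fell in NP of both knockdowns, and none fell in CH. Sox1 and Sox3, transcription factors of neural progenitors, were the 2 of 6 neural markers tested that rose in CY of both knockdowns, where 1.70% and 1.33% of all genes rose, and Sox1 also rose in CH of both. Foxa2, an endoderm factor, rose in combined knockdown CY, at 1.36 TPM against 0.280 TPM in siGFP CY. No fibroblast marker was called. The part of these markers in the Hist1h1c differences, and in those of the other members, was not tested.

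No other H1 gene was called in a knockdown. Hist1h1a (H1.1) stood at 3.24, 3.48 and 3.57 TPM in combined knockdown CY, 2.76, 3.95 and 2.61 TPM in siPTBP1 CY, and 3.24, 4.91 and 1.46 TPM in siGFP CY. It was above its same-numbered control in 5 of 9 pairs for the combined knockdown and 3 of 9 for siPTBP1. Hist1h1b (H1.5) averaged 1.19 ± 0.310 TPM in combined knockdown CY, 1.33 ± 0.351 TPM in siPTBP1 CY and 1.59 ± 0.135 TPM in siGFP CY. In NP it stood at 2.56, 2.17 and 1.06 TPM in siPTBP1 cells and 1.17, 1.12 and 0.43 TPM in siGFP cells, above its same-numbered control in 3 of 3 pairs (ratios 2.19, 1.94 and 2.47). It was not called there (log2 difference 0.61, adjusted p = 1 without and 0.106 with the block) or in any other knockdown comparison. A difference between Hist1h1c and the other H1 genes was not tested as such.

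The promoters of Hist1h1c and Hist1h1a are shown because these H1 genes had different values in the knockdowns. RefSeq (GRCm38.p6) holds 250 bases before to 50 after the start of 62 of the 70 members. Capitals mark 3 motifs, each searched on both strands: the letters CCAAT, the letters TATAAA of the classical promoter box, and an element known from H1 promoters spelled AAACACA, which was searched after the files had been seen.
Hist1h1c (chr13:23738557-23738856, plus strand): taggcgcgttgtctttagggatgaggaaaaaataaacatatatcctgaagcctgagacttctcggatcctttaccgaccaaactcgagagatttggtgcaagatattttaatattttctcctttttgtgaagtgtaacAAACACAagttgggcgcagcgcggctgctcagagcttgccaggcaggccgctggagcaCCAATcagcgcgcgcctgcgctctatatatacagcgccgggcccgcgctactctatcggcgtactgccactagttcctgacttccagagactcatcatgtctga
Hist1h1a (chr13:23763418-23763717, plus strand): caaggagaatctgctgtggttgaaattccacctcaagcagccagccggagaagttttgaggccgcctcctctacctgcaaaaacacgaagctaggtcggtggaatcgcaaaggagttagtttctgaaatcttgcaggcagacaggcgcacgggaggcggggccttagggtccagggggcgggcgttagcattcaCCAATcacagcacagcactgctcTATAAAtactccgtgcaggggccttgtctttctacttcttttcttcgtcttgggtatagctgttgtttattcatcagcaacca
CCAAT was in the promoters of all 6 H1, all 18 H2A, all 16 H2B and all 10 H3 genes with an entry, in 3 of 12 H4 promoters, and in 37.4% of 32851 promoters overall. TATAAA was in 35 of 62 member promoters, against 13.6% overall. AAACACA was in 5 of 6 H1 promoters, Hist1h1a being the one without these letters, and in 7.18% overall. ATTTGCAT, the octamer known from H2B genes, was also searched on both strands, so its orientation was not told apart. It was in 7 of 18 H2A and 6 of 16 H2B promoters, in none of the H1, H3 and H4 promoters, and in 1.74% overall. Neighbouring H2A and H2B genes are often divergent, so that their windows can overlap and hold the same letters.

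Hist1h4i was also above its same-numbered control in 9 of 9 pairs in either knockdown, again 3 replicates in 3 fractions, but the differences were smaller. In CH it stood at 31.6, 21.7 and 22.5 TPM in combined knockdown cells, 21.7, 19.7 and 19.9 TPM in siPTBP1 cells, and 17.2, 11.8 and 16.3 TPM in siGFP cells. In CY the values were 21.3, 9.11 and 14.7 TPM in combined knockdown cells, 21.3, 12.2 and 14.4 TPM in siPTBP1 cells, and 10.1, 7.78 and 10.3 TPM in siGFP cells. The knockdown libraries of CH lay above the control libraries without overlap, whereas in CY the lowest combined knockdown library lay within the control range. Ratios of group means to siGFP were 1.68 in CH, 1.69 in NP and 1.60 in CY for the combined knockdown, and 1.35, 1.67 and 1.70 for siPTBP1. Only the combined knockdown in CH was called, and only with the block (log2 difference 0.70, SE 0.316, adjusted p = 0.63 without and 0.0383 with it).

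Across the 56 members tested, none was called in any knockdown fraction by limma on group means, against 0.427%, 0.155% and 0.243% of all genes in CH, NP and CY for the combined knockdown and 0.398%, 0.160% and 0.228% for siPTBP1. At an unadjusted p below 0.05 there were 14, 4 and 4 members in CH, NP and CY for the combined knockdown and 11, 4 and 3 for siPTBP1. In CH that was 25.0% of the members tested against 6.94% of all genes for the combined knockdown, and 19.6% against 6.65% for siPTBP1. In NP it was 7.14% against 5.24% and 7.14% against 4.88%, and in CY 7.14% against 4.96% and 5.36% against 4.41%. With the replicate block, 7 members rose in CH of the combined knockdown and 5 in CH of siPTBP1, against 1.64% and 1.82% of all genes. Both counts include Hist1h2be, and that for siPTBP1 Hist1h2bm, which passed the filter through knockdown libraries. In NP and CY Hist1h1c was the 1 member called in either knockdown, where 1.14% and 1.70% of all genes rose for the combined knockdown and 1.20% and 1.33% for siPTBP1. No member fell, against 0.475%, 0.704% and 0.951% of all genes in CH, NP and CY for the combined knockdown and 0.631%, 0.684% and 0.495% for siPTBP1. The members' median log2 difference in CH was 0.22 for the combined knockdown and 0.10 for siPTBP1, beside medians over all genes of 0.07 and 0.09. In NP and CY it lay between -0.06 and 0.05.

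**Figure D4:**
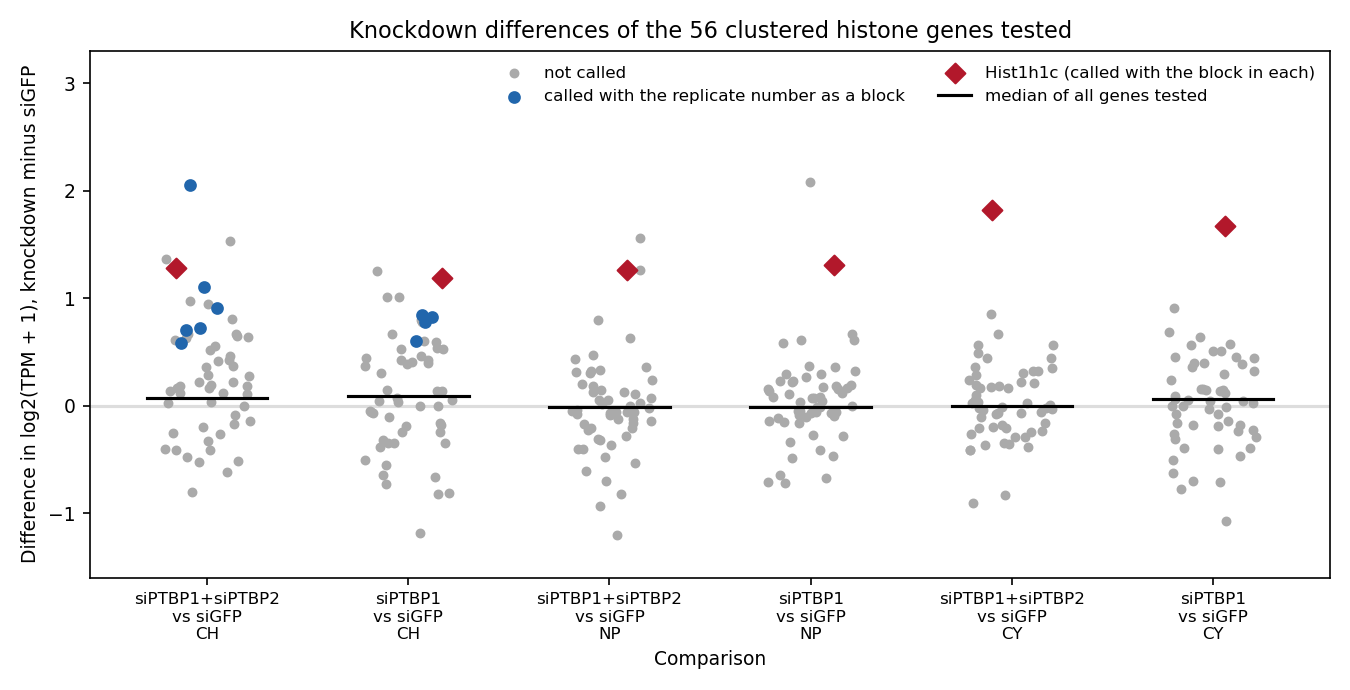
Difference in log2(TPM + 1), knockdown minus siGFP, for each of the 56 members tested (points) in the 6 comparisons, with the median of all genes as a black bar. Hist1h1c (red diamonds, 1.18 to 1.82) was called with the replicate block in each comparison; the other called members (blue) are all in CH.

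The members called in CH beside Hist1h1c came from H2A, H2B, H3 and H4. Hist1h3f, an H3 gene, stood at 4.58, 4.28 and 3.03 TPM in combined knockdown CH, 3.41, 4.20 and 2.93 TPM in siPTBP1 CH, and 2.22, 1.20 and 1.54 TPM in siGFP CH, without overlap (log2 differences 0.91 and 0.77, SE 0.218, blocked adjusted p = 0.0191 and 0.0446). Hist1h2be, an H2B gene of 2 exons, stood at 2.12, 3.39 and 2.36 TPM in combined knockdown CH, 2.58, 2.76 and 2.57 TPM in siPTBP1 CH, and 1.34, 2.03 and 0.94 TPM in siGFP CH, again without overlap (0.58 and 0.60, SE 0.165, blocked adjusted p = 0.0402 and 0.0314). These were the only members, Hist1h1c aside, that were called in CH of both knockdowns, which share their siGFP libraries. Hist1h2be reached 1 TPM in 9 libraries, but among siGFP libraries only in CH replicates 1 and 2, and the filter asks for 3. It passed through knockdown libraries, so its calls add no independent support.

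For the combined knockdown the further calls in CH were Hist1h2ae (H2A), at 4.24 ± 0.854 TPM against 2.19 ± 0.517 TPM in siGFP, and Hist1h4a (H4), at 4.24 ± 1.65 TPM against 1.45 ± 0.840 TPM. Hist1h2ao (H2A) stood at 9.42 ± 3.303 TPM in the combined knockdown and 2.16 ± 2.68 TPM in siGFP, the largest log2 difference of any member there (2.05, blocked adjusted p = 0.0408), but nearly all of its sequence is shared with other genes. For siPTBP1 they were Hist1h2bp (H2B), at 4.87 ± 1.13 TPM against 2.30 ± 0.380 TPM in siGFP, and Hist1h2bm (H2B), at 1.92 ± 0.987 TPM against 0.600 ± 0.393 TPM (SD, n = 3 each). Hist1h2bm reached 1 TPM in 8 of 27 libraries, mostly of knockdown CH, so it too passed the filter through the libraries where it is high. Apart from Hist1h1c these calls were near the threshold: with median-ratio scaling or quantile normalization, Hist1h1c was the 1 call left in CH of either knockdown, and without siGFP CH replicate 3 there were 2 calls for each knockdown.

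The combined knockdown was also set against siPTBP1 alone. No member was called by limma in CH, NP or CY, where 0.107%, 0.00485% and 0% of all genes were called, and 6, 3 and 2 members had an unadjusted p below 0.05. That was 10.7%, 5.36% and 3.57% of the members tested, against 3.21%, 0.733% and 0.713% of all genes. Hist1h1c averaged 21.6 ± 9.43 TPM in combined knockdown CY and 18.8 ± 5.92 TPM in siPTBP1 CY, and 16.7 ± 4.86 TPM against 15.5 ± 4.12 TPM in CH. The change of the CH to CY difference with knockdown was tested as an interaction, and no member was called for the combined knockdown or siPTBP1, against 0.0582% and 0.0437% of all genes. At an unadjusted p below 0.05 there were 5 and 4 members, which is 8.93% and 7.14% of those tested against 3.08% and 2.58% of all genes. A knockdown difference in Hist1h1c that depended on the fraction was thus not detectable, and the calls in CH are not shown to be particular to CH.

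The fractions were compared in siGFP cells. Between CH and CY all genes shifted by a median of 0.95 on the log2(TPM + 1) scale, between CH and NP by 0.68 and between NP and CY by 0.15, whereas the members' medians were -0.03, 0.17 and -0.15. In CH against CY 54 of 56 members lay below the median of all genes. In CH against NP 44 of 56 did so, and in NP against CY 48 of 56. The filter admits genes that reach 1 TPM in CH alone, which pushes up the medians of the CH comparisons. CH libraries held 17301 to 19509 genes at 1 TPM or more, and CY libraries 11837 to 13478. A place below these medians therefore does not by itself put the members on the cytoplasmic side. The direction of single members depends on the scaling: with median-ratio scaling 1 member was higher and 21 lower in CH than in CY, against 38.9% of all genes higher and 21.8% lower. With quantile normalization none was higher and 39 were lower, against 23.9% and 31.2% of all genes.

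On the deposited TPM scale 8 members were higher and 4 lower in CH than in CY, against 57.9% of all genes higher and 8.08% lower. With the block these were 14 and 7, against 65.4% and 11.5%. Hist1h3d, an H3 gene whose transcript runs 752 bases past its stem-loop, stood at 2.74, 1.36 and 2.28 TPM in siGFP CH and 0.74, 0.45 and 0.55 TPM in siGFP CY (log2 difference 0.96, SE 0.190, adjusted p = 0.000153). Hist1h2be stood at 1.34, 2.03 and 0.94 TPM in siGFP CH and 0.21, 0.23 and 0.30 TPM in siGFP CY (0.94, SE 0.165, adjusted p = 4.09e-05). Both were higher in each CH library than in any CY library, by about the median of all genes, and both were negative with quantile normalization (-0.41 and -0.32). The other members higher in CH were Hist1h2an, Hist1h2bg, Hist2h2ac, Hist1h3f, Hist1h4j and Hist2h2be, with log2 differences between 0.45 and 1.48. Hist2h2ac and Hist2h2be reached 1 TPM in CH libraries only, and Hist1h2be outside CH in combined knockdown NP replicate 3 only. Hist1h3d reached 1 TPM in 10 libraries, mostly of CH. These genes passed the filter through the fraction where they are high, so their calls add no independent support.

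The 4 members lower in CH than in CY were Hist1h2ae, Hist1h2bc, Hist1h3h and Hist2h2aa1. Hist1h2ae stood at 2.75, 2.09 and 1.73 TPM in siGFP CH and 3.98, 4.58 and 4.22 TPM in siGFP CY, without overlap (log2 difference -0.73, SE 0.243, adjusted p = 0.0116). Hist1h2bc, an H2B gene of 2 exons, stood at 1.32, 0.58 and 1.05 TPM in siGFP CH and 2.47, 1.56 and 2.11 TPM in siGFP CY (-0.63, SE 0.231, adjusted p = 0.0218). Hist1h3h (-1.72, adjusted p = 0.031) overlapped between the fractions and Hist2h2aa1 was listed at 0 in all 3 CH libraries, and both share most of their sequence with other genes. Hist1h1c was on neither list, at 6.77 ± 3.98 TPM in siGFP CH and 5.18 ± 1.69 TPM in siGFP CY.

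Against NP, 12 members were higher in CH and none lower, beside 46.0% and 5.48% of all genes, and with the block 16 and 1, beside 57.0% and 9.95%. With median-ratio scaling 2 were higher and 1 lower, beside 30.0% and 13.7% of all genes, and with quantile normalization none was higher and 14 lower, beside 19.2% and 22.8%. Hist1h4i stood at 17.2, 11.8 and 16.3 TPM in siGFP CH and 8.84, 5.13 and 7.66 TPM in siGFP NP (log2 difference 0.98, SE 0.316, adjusted p = 0.0131). Hist1h1a stood at 6.78, 4.96 and 4.13 TPM in siGFP CH and 3.20, 2.59 and 1.92 TPM in siGFP NP (0.81, SE 0.303, adjusted p = 0.0299), and Hist1h1b at 4.6, 2.78 and 1.90 TPM against 1.17, 1.12 and 0.43 TPM (1.07, SE 0.301, adjusted p = 0.00512). None of these 3 genes overlapped between the fractions, and Hist1h1a was negative with quantile normalization (-0.19). The others were Hist1h2ai, Hist1h2an, Hist2h2ac, Hist1h3e, Hist1h3d, Hist1h2bg, Hist1h2be, Hist1h3f and Hist2h2be, with log2 differences between 0.38 and 1.71. Of these, Hist2h2ac, Hist1h2be and Hist2h2be passed the filter through CH, so their calls here add no independent support either.

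Between NP and CY no member was called by limma, against 12.3% of all genes higher and 0.461% lower in NP, and 4 members (7.14% of those tested, against 22.6% of all genes) had an unadjusted p below 0.05. With the block 1 member fell, against 23.5% of all genes higher and 4.74% lower. This was Hist1h3a, an H3 gene, at 1.14 ± 0.856 TPM in siGFP NP and 3.11 ± 0.762 TPM in siGFP CY (log2 difference -0.998, adjusted p = 0.104 without and 0.0152 with the block).

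The kind of annotated transcript was set beside these differences, as a description. Of the 18 tested members that run past their stem-loop, 6 were higher and 1 lower in CH than in CY, with a median log2 difference of 0.29, where 57.9% of all genes were higher and 8.08% lower. Of the 18 that end at it, none was higher and 1 lower, with a median of -0.26. Of the 20 in which no stem-loop was found, 2 were higher and 2 lower, with a median of 0.12. Against NP, 7, 0 and 5 members of the 3 kinds were higher in CH, beside 46.0% of all genes. Both sets of counts include Hist2h2ac, Hist1h3d, Hist1h2be and Hist2h2be, which passed the filter through CH. The members that rose in CH with the block were 6, 1 and 0 of the 3 kinds for the combined knockdown and 3, 2 and 0 for siPTBP1, beside 1.64% and 1.82% of all genes. Among them are Hist1h2be and, for siPTBP1, Hist1h2bm, which passed the filter through knockdown libraries. The kinds also differ in how well reads can be assigned, with median unique shares of 66.6%, 32.3% and 16.1%, and in median length, at 1079, 481 and 402 bases. Their part in these counts was not tested.

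**Figure D5:**
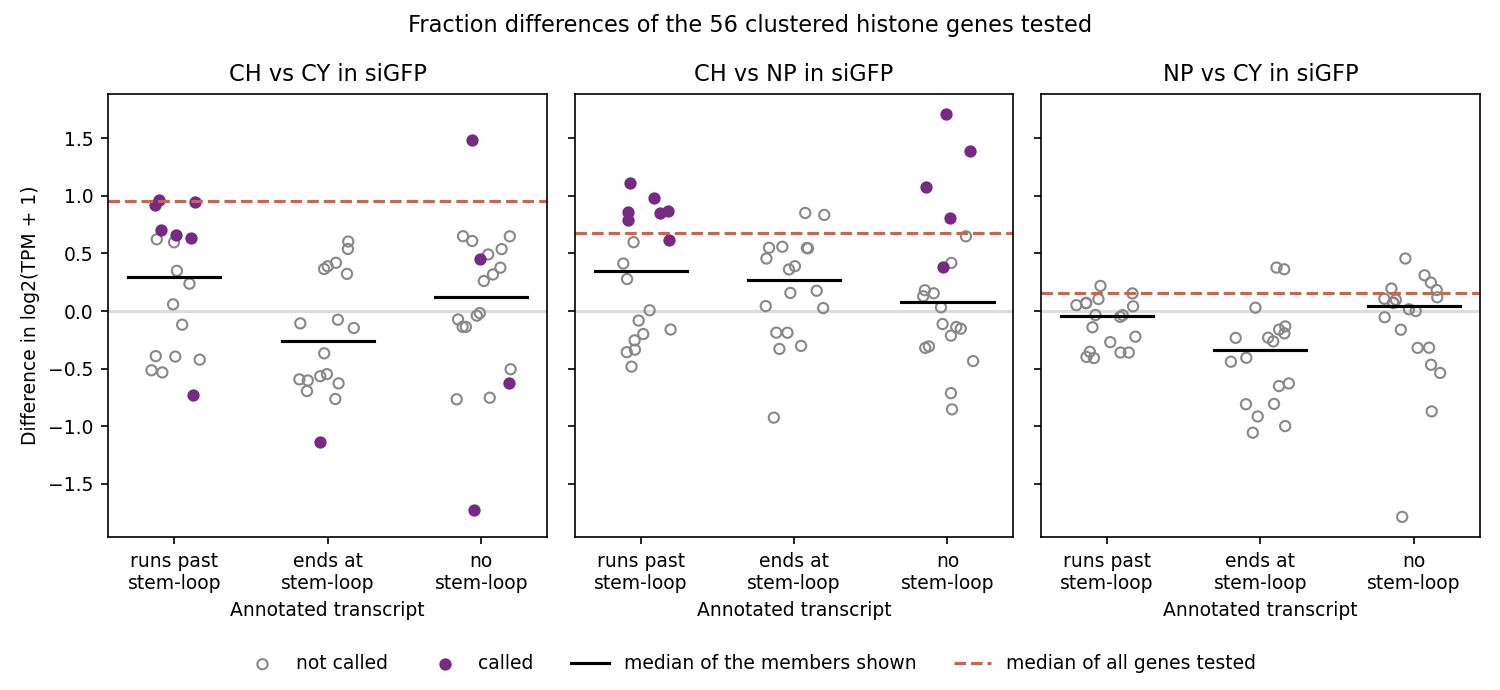
Difference in log2(TPM + 1) between fractions of siGFP cells for the 56 members tested, split by where the annotated transcript ends relative to the stem-loop; filled points were called, black bars are medians of the points and the dashed line is the median of all genes (0.95, 0.68 and 0.15). In CH against CY the members that run past the stem-loop had a median of 0.29 and those that end at it of -0.26.

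Replication-independent histone genes, whose mRNAs are polyadenylated as a rule, were also compared between fractions. Of 11 tested, none was higher and 9 were lower in CH than in CY, with a median log2 difference of -1.09, against 57.9% of all genes higher, 8.08% lower and a median of 0.95. H2afz averaged 621 ± 142 TPM in siGFP CH and 1499 ± 162 TPM in siGFP CY (SD, n = 3 each; log2 difference -1.29, adjusted p = 1.23e-05), and H3f3a, which codes for H3.3, had a log2 difference of -2.23. Against NP, 5 of the 11 were lower in CH, where 5.48% of all genes were. The difference between these genes and the clustered ones was not tested as such.

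In the knockdowns none of these 11 genes was called without the block, and with it H1f0 was the one called. H1f0, the linker histone H1.0 that is known to accumulate in cells that stop dividing, stood at 38.0, 63.7 and 29.6 TPM in combined knockdown CY, 38.2, 61.1 and 31.3 TPM in siPTBP1 CY, and 21.1, 39.2 and 20.5 TPM in siGFP CY. The groups overlapped, but each knockdown library exceeded its same-numbered control, as in NP and CH (9 of 9 pairs in either knockdown, from 3 replicates in 3 fractions). H1f0 rose with the block in CY (log2 differences 0.67 for the combined knockdown and 0.68 for siPTBP1, adjusted p = 0.00924 and 0.0104) and in CH (0.57 and 0.59, adjusted p = 0.0341 and 0.0242).

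Genes that process histone mRNA, deposit histones or copy DNA were described in the same way, beside the 57.9% of all genes higher and 8.08% lower in siGFP CH than in CY. Of 19 genes for histone mRNA 3′ processing and decay, 6 were higher and 3 lower in siGFP CH than in CY, among them Srrt (log2 difference 2.80), which codes for ARS2 of the cap-binding complex, and Snrpd3 (-1.94), which codes for a core protein of small nuclear RNPs. None of the 19 was called in any knockdown comparison with siGFP, with or without the block, where 0.155% to 0.427% of all genes were called without it and 1.83% to 2.65% with it. Of 18 histone chaperone and deposition genes, 9 were higher and 2 lower in CH than in CY, among them Cabin1 (2.64), a subunit of the HIRA complex, and Ipo4 (1.90), an importin. In the knockdowns 1 of the 18 was called, with the block only: Hira, the H3.3 chaperone, averaged 78.5 ± 4.92 TPM in siPTBP1 CY and 48.0 ± 7.23 TPM in siGFP CY (log2 difference 0.71, adjusted p = 0.00803). Of 20 DNA replication genes, 3 were higher and 2 lower in CH than in CY, among them Pole (2.65) and Pold1 (1.89), the catalytic subunits of DNA polymerases epsilon and delta. None of the 20 was called in any knockdown comparison with siGFP, and their sums in CY were 2927 to 3683 TPM in the combined knockdown, 3291 to 3617 TPM in siPTBP1 and 2772 to 3344 TPM in siGFP.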

How the data were processed

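Polyadenylated RNA of 27 libraries (9 groups, 3 replicates each) was measured with a stranded mRNA kit, per the labels' protocols. The values used are gene-level TPM as deposited by the authors. The submitters' processing notes name kallisto, STAR and the build mm10; their versions, and the annotation and strand setting behind the table, are not given in the sources used here. TPM is relative within a library and keeps no depth.

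Genes with at least 1 TPM in at least 3 libraries (20611 of 53379) were tested on log2(TPM + 1) with limma 3.58.1 (R 4.3.3), using 9 group means and empirical Bayes moderation with a trend and robust option. P-values are two-sided, adjusted by the Benjamini-Hochberg method over all genes tested, and called below 0.05. A fold change on the log2(TPM + 1) scale understates that of low genes. Residual degrees of freedom were 18, and 16 with the replicate number as a block.

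Same-numbered libraries of different groups deviated together from their group means (108 pairs, correlation 0.13 at the lowest and 0.365 at the median). Over the members alone the median was 0.109. The other 216 pairs had a median of -0.213 over all genes, but this is no separate evidence. Deviations from a group mean cancel within the group, so these pairs turn negative when same-numbered ones are positive. The numbers were taken to pair the libraries. This rests on the values and on the numbers being shared; what a number stands for is not in the labels. Blocked values are given where they change a call.

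Stem-loops, windows of 31 bases and transcript ends were read from the GRCm38 transcripts by Python 3.11.15, and promoters from RefSeq. The script was tested on simulated data. Alternatives were another pseudocount, other filters, median-ratio scaling, quantile normalization, only the groups compared, and leaving out each library or replicate 1. Genes named are the 3 highest of each class, up to 5 further per direction among the members called, Ptbp1 and Ptbp2, and up to 3 called genes of each other list; Hist1h4a, Hist1h2ao, Hist1h2bp, Hist1h2bm and Hist1h3a were called with the block only, and Hira, Hist1h4j and Hist2h2be were named for completeness after their values were seen. The members and lists were chosen with earlier results of these data known.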

Additional observations from a re-analysis of the deposited data

How the results depend on the processing

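Counts of members called, out of 56 tested, moved with these choices. With the replicate block they were 21 for CH against CY (14 higher), 1 for NP against CY, 7, 1 and 1 for the combined knockdown in CH, NP and CY, and 5, 1 and 1 for siPTBP1. A minimum of 5 TPM, which tests fewer members, left 2 for CH against CY and 5 for CH against NP. Median-ratio scaling gave 22, 3 and 3 and quantile normalization 39 and 6 (CH against CY, NP against CY and, for the first, CH against NP). A pseudocount of 0.1 gave 1 for NP against CY, no filter 1 for the combined knockdown in CH, and leaving out replicate 1 gave 1 for the combined knockdown in CH against siGFP and 1 against siPTBP1. The cause was not tested. Median-ratio scaling also moved mean summed TPM to 148 in combined knockdown CH, 295.7 in combined knockdown CY, 129 in siPTBP1 CH, 235 in siPTBP1 CY and 237 in siGFP CY.

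Leaving out 1 library gave 7 to 14 for CH against CY (7 without siGFP CH replicate 2 or CY replicate 3), 6 to 13 for CH against NP (6 without siGFP NP replicate 3), and 0 to 1 for NP against CY and for either knockdown in CH and NP. With the block it gave 2 to 4 for the combined knockdown and 1 to 3 for siPTBP1 in CH, 1 to 2 for either in NP (2 without siGFP NP replicate 2 in both, or combined knockdown NP replicate 2), and 1 in CY. Hist1h1c remained called in all of these blocked fits, with log2 differences of 1.08 to 1.91.

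Alternatives to the blocked fit were added after seeing the data. In CH they gave 2 (pseudocount 0.1), 3 (minimum of 5 TPM), 1 (median-ratio) and 1 (quantile) for the combined knockdown, and 1 under each of these 4 and 3 without replicate 1 for siPTBP1. In NP they gave 2 for the combined knockdown with median-ratio scaling, and 2 for siPTBP1 with a pseudocount of 0.1, a minimum of 5 TPM or median-ratio scaling. In CY they gave 3 for the combined knockdown with median-ratio or quantile scaling, and 2 for siPTBP1 with a pseudocount of 0.1 or a minimum of 5 TPM.

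Directions reversed between fractions only. For CH against CY, median-ratio scaling turned Hist1h1a (-0.20), Hist1h1b (-0.12), Hist1h3e (-0.18) and Hist1h4i (-0.37). Quantile normalization turned Hist1h1a (-0.88), Hist1h1b (-0.88), Hist1h2be (-0.32), Hist1h2bg (-0.63), Hist1h2bj (-0.71), Hist1h2bm (-0.23), Hist1h3d (-0.41), Hist1h3e (-0.91), Hist1h3f (-0.69), Hist1h4i (-0.72), Hist1h4j (-0.73), Hist2h2ac (-0.50) and Hist2h2be (-0.60). For CH against NP it turned Hist1h1a (-0.19), Hist1h1c (-0.35), Hist1h2bb (-0.30), Hist1h2be (-0.090), Hist1h2bg (-0.13), Hist1h2bj (-0.039), Hist1h3a (-0.10), Hist1h3d (-0.067), Hist1h3e (-0.12), Hist1h3f (-0.28) and Hist2h2be (-0.31).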
